A study of Mus musculus with 3 samples.

Results

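The genes described are the TGF-beta ligands *Tgfb1*, *Tgfb2* and *Tgfb3*, the receptors *Tgfbr1*, *Tgfbr2* and *Tgfbr3*, and the latent TGF-beta binding proteins *Ltbp1*, *Ltbp2*, *Ltbp3* and *Ltbp4*. They were chosen by symbol, and all 10 were found among the 32285 genes of single-cell RNA sequencing (scRNAseq) tables from the flexor digitorum longus (FDL) tendon of the mouse hind paw. The tables hold unique molecular identifiers (UMIs), 1 for each captured transcript, of 3 libraries. Each library pooled 16 tendons from male and female mice. WT mice were Scx-Cre-; DTR F/+ and received 5 daily injections of diphtheria toxin (DT). DTR mice were Scx-Cre+; DTR F/+ and received the same 5 injections, so that Cre driven by the *Scx* promoter switched on the DT receptor in Scleraxis-lineage cells and DT killed them. The labels give 3 months as the age of both groups; per the study's methods this was the age at injection, and tendons were taken 3 months later. B6 mice were C57/Bl6, 21 months old, without a floxed allele or DT. WT tendons were digested for 120 min and those of DTR and B6 for 90 min, so a digestion effect and a genotype or age effect cannot be told apart. In B6 the missing allele and toxin also cannot be told apart from age. With 1 library per group no difference was tested, and every interval is a 95% interval that covers counting error only.

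TGF-beta is secreted in a latent form, bound to its own propeptide, and *Ltbp1*, *Ltbp3* and *Ltbp4* encode proteins that attach to this complex and tether it to fibrillin and fibronectin in the matrix. The protein encoded by *Ltbp2* does not bind latent TGF-beta but binds fibrillin. Once freed by integrins, thrombospondin or proteases, the ligand binds the type II receptor (*Tgfbr2*), which recruits and activates the type I receptor (*Tgfbr1*) to phosphorylate SMAD2 and SMAD3, while the coreceptor betaglycan (*Tgfbr3*) presents ligand, TGF-beta 2 above all, and can be shed as a soluble trap. In tendon, TGF-beta signaling is known for its role in forming and keeping tenocytes and for scarring after injury.

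After the filter (1000 to 5000 genes and at most 10% mitochondrial counts), 8357 WT, 6554 DTR and 4798 B6 cells remained, with medians of 13008, 12328 and 12914 UMIs per cell. At most 15 barcodes were shared between any 2 libraries among kept cells. Cells were assigned to classes by markers after thinning every cell to 2000 UMIs: a class needed at least 3 of its markers and at least 2 more than any other class. Tenocyte-like cells were 61.1% (60.1 to 62.2) of WT cells, 41.8% (40.6 to 43.0) of DTR cells and 17.6% (16.6 to 18.7) of B6 cells, with 5110, 2738 and 846 cells. Epitenon-like cells, the sheath cells around the tendon, were 11.3% (10.6 to 12.01), 14.4% (13.6 to 15.3) and 43.7% (42.3 to 45.1). Macrophage-like cells numbered 516, 1028 and 462, endothelial-like cells 136, 135 and 135, mural-like cells 141, 183 and 47, T cell-like cells 94, 253 and 37, and Schwann-like cells 50, 58 and 35. Cells with markers of several classes were 6.44% to 6.96% of a library and cells without a class 9.74% to 16.5%. All 8 tenocyte markers were detected in tenocyte-like cells of every library, with a summed level between 19438 and 23080 CPM (the usual depth-scaled count, a gene's share of all UMIs summed over the cells of a class). Their macrophage markers summed to at most 52.5 CPM and their endothelial markers to at most 15.2 CPM, but epitenon markers to between 1182 and 1482 CPM and mural markers, led by *Ndufa4l2*, to between 305 and 855 CPM. Muscle fiber markers summed to 92.5 CPM in DTR and 147 CPM in B6, above their sum in WT.

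The genes differed in their distribution over the cell classes, also within the ligands, within the receptors and within the binders. Tenocyte-like, epitenon-like, endothelial-like and macrophage-like cells were the classes with at least 50 cells in every library. Among them, 9 of the 10 genes were highest in the same class in all 3 libraries. The share of all genes that keep their leading class was not computed, so the count is not read as particular to these genes. *Tgfb1*, *Tgfbr1* and *Tgfbr2* were highest in macrophage-like cells, *Tgfb3*, *Tgfbr3* and *Ltbp3* in tenocyte-like cells, and *Tgfb2*, *Ltbp1* and *Ltbp2* in epitenon-like cells. *Ltbp4* was highest in epitenon-like cells of WT and B6 and in endothelial-like cells of DTR. Of the smaller classes, T cell-like cells were above macrophage-like cells for *Tgfb1* in DTR, and mural-like cells of B6, 47 in number, were above the leading class for *Tgfb3* and *Ltbp1*. The plot of levels by class shows these orders.

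**Figure D1:**
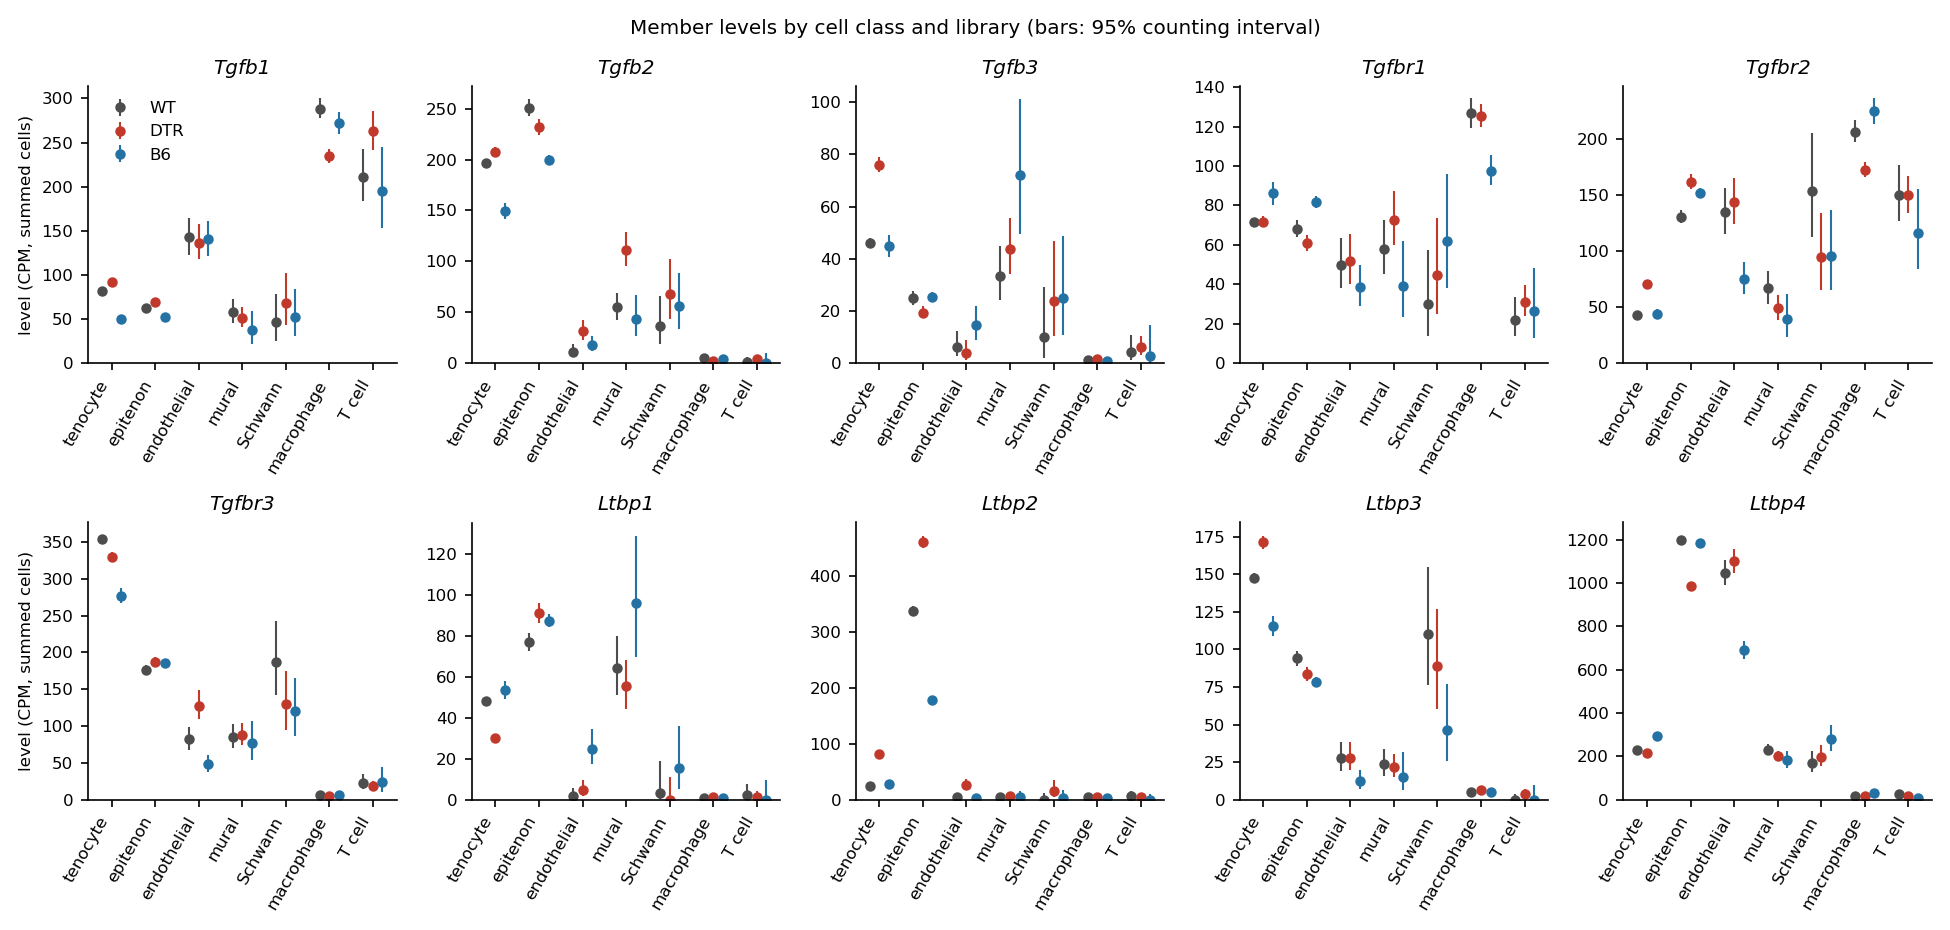
Level of each gene (CPM of summed cells, linear axis from 0) in 7 cell classes of WT, DTR and B6, as points with 95% counting intervals. *Tgfb1* peaked in macrophage-like and T cell-like cells, *Tgfbr3* and *Ltbp3* in tenocyte-like cells, *Ltbp2* in epitenon-like cells, and *Ltbp4* in both epitenon-like and endothelial-like cells.

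Among the ligands, *Tgfb1* (ENSMUSG00000002603), the isoform made by most immune cells, was at 289 CPM in macrophage-like cells of WT, 235 in DTR and 272 in B6. T cell-like cells held 211, 263 and 195 CPM, so the ranges over the 3 libraries of these neighbouring classes overlapped. Endothelial-like cells came next and hardly varied, with 143 CPM in WT, 137 in DTR and 140 in B6. Tenocyte-like cells were lower still, at 81.7, 92.1 and 49.8 CPM, and overlapped the epitenon-like cells at 62.7, 69.6 and 52.6 CPM. After thinning, 42.4% (38.1 to 46.8) of WT macrophage-like cells had a *Tgfb1* UMI, compared with 14.1% (13.2 to 15.1) of WT tenocyte-like cells.

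*Tgfb2* (ENSMUSG00000039239), the isoform that depends most on betaglycan, was highest in the stromal classes among the classes compared. Epitenon-like cells held 251 CPM in WT, 232 in DTR and 199 in B6, and tenocyte-like cells 196, 208 and 149 CPM. Both stood above the other classes compared, among which mural-like cells reached 111 CPM in DTR. Muscle satellite cells were not compared as a class, with 5, 8 and 9 cells under the marker rule. The cluster led by *Myod1* and *Asb5* (clusters are described below) held 57 WT, 87 DTR and 98 B6 cells. Its *Tgfb2* level was 314, 334 and 152 CPM, above both stromal classes in WT and DTR. The cluster led by *Ptx3* and *Tnfaip6* was above both stromal classes in every library, at 319, 425 and 311 CPM. Its cells were most often without a class in WT (39.4%) and DTR (41.0%), and epitenon-like in B6 (71.8%). Macrophage-like cells held at most 4.66 CPM and T cell-like cells at most 3.75 CPM, and the whole-library profile scaled to their free RNA would give 2.77 to 3.56 CPM in macrophage-like cells. Their thinned shares of cells with a UMI, 0.581%, 0.584% and 1.08%, serve as the background for the 25.1% of WT tenocyte-like cells. The median depths of these classes in WT were 16172 and 12893 UMIs.

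*Tgfb3* (ENSMUSG00000021253), the third isoform, was at 46.2 CPM in tenocyte-like cells of WT, 75.9 in DTR and 44.8 in B6. Mural-like cells, with 33.3, 43.9 and 72.0 CPM from 42, 69 and 33 UMIs, overlapped that range. Epitenon-like cells held 24.8, 19.3 and 25.4 CPM. In macrophage-like cells the level was at most 1.41 CPM. The classes therefore differed in which ligand gave most of the ligand UMIs: *Tgfb1* gave 98.0%, 98.4% and 98.1% of them in macrophage-like cells, and *Tgfb2* gave 60.5%, 55.3% and 61.2% in tenocyte-like cells. These shares are set between classes, where any unequal capture of the transcripts is the same, since 3′ counts are not scaled by gene length.

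Among the receptors, *Tgfbr1* (ENSMUSG00000007613), the type I kinase, was led by macrophage-like cells at 127, 125 and 97.7 CPM in WT, DTR and B6. Tenocyte-like cells held 71.8, 71.6 and 86.1 CPM and epitenon-like cells 68.1, 61.0 and 81.7 CPM, and these ranges overlapped. *Tgfbr2* (ENSMUSG00000032440), the ligand-binding type II kinase, was at 207, 173 and 225 CPM in macrophage-like cells and at 131, 162 and 152 CPM in epitenon-like cells. T cell-like, endothelial-like and Schwann-like cells overlapped the epitenon-like range. Tenocyte-like cells were at the bottom of the *Tgfbr2* order with 42.6 CPM in WT, 71.1 in DTR and 43.6 in B6, overlapping the mural-like cells.

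*Tgfbr3* (ENSMUSG00000029287) had the opposite classes at its ends. Tenocyte-like cells held 354 CPM in WT, 330.2 in DTR and 277 in B6, above epitenon-like cells at 176, 187 and 185 CPM without overlap. Macrophage-like cells held 5.71, 4.58 and 5.88 CPM, where free RNA alone would give 4.98, 3.49 and 4.48 CPM. After thinning, 49.6% (48.2 to 51.0) of WT tenocyte-like cells had a *Tgfbr3* UMI and 1.16% of WT macrophage-like cells did.

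The number of *Tgfbr3* UMIs per *Tgfbr2* UMI was compared only between classes and libraries. It was 8.32 (8.01 to 8.65) in tenocyte-like cells of WT, 4.65 (4.45 to 4.85) in DTR and 6.35 (5.74 to 7.05) in B6. In epitenon-like cells it was 1.34 (1.27 to 1.43), 1.16 (1.10 to 1.22) and 1.22 (1.17 to 1.26). Endothelial-like cells lay at 0.608, 0.890 and 0.642, and macrophage-like cells at 0.0276, 0.0265 and 0.0261. The intervals of tenocyte-like cells overlapped neither each other nor those of any other class.

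**Figure D2:**
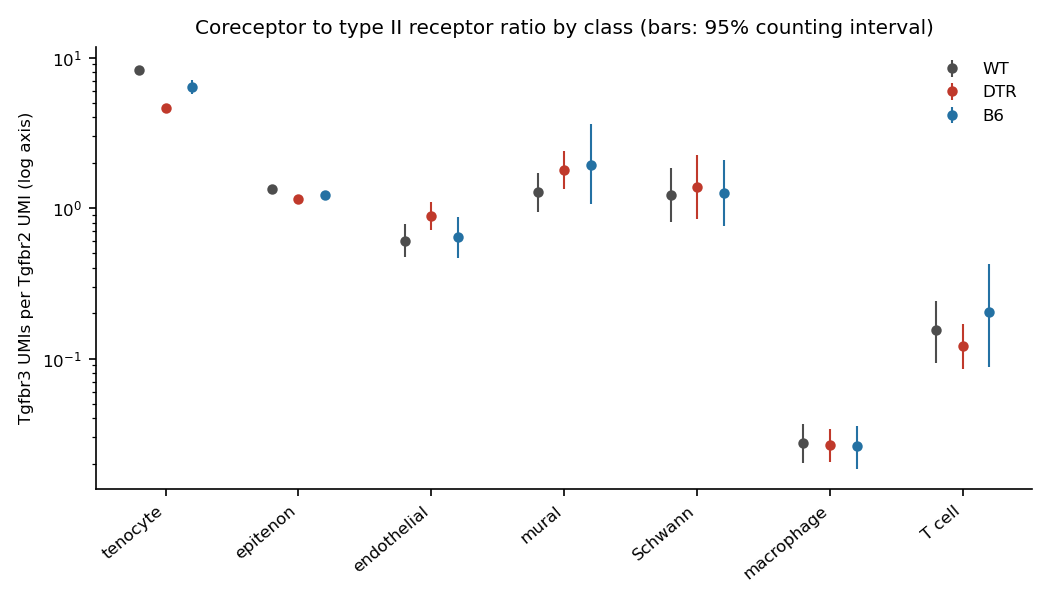
*Tgfbr3* UMIs per *Tgfbr2* UMI (log axis) in 7 cell classes of WT, DTR and B6, as points with 95% counting intervals. Tenocyte-like cells were highest, at 8.32, 4.65 and 6.35, and macrophage-like cells lowest, at 0.0276, 0.0265 and 0.0261.

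The binders also divided by class. *Ltbp3* (ENSMUSG00000024940), whose protein carries latent TGF-beta out of the cell, was at 148 CPM in tenocyte-like cells of WT, 171 in DTR and 115 in B6. Epitenon-like cells held 94.1, 83.5 and 78.6 CPM, below every tenocyte-like value, and Schwann-like cells 110, 89.0 and 46.5 CPM from at most 33 UMIs. *Ltbp1* (ENSMUSG00000001870), which binds fibronectin and fibrillin, was at 76.9, 91.1 and 87.4 CPM in epitenon-like cells, with mural-like cells overlapping at 64.3, 55.3 and 96.0 CPM. Tenocyte-like cells held 47.9, 30.2 and 53.3 CPM of *Ltbp1*, and macrophage-like cells at most 1.27 CPM.

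*Ltbp4* (ENSMUSG00000040488), an elastic fiber protein and *Tgfb1* carrier, was at 1202 CPM in epitenon-like cells of WT, 986 in DTR and 1184 in B6. Endothelial-like cells overlapped them in WT and DTR, at 1048 and 1102 CPM, and held 691 CPM in B6. Tenocyte-like cells held 231, 214 and 293 CPM. After thinning, an *Ltbp4* UMI was found in 78.8%, 78.4% and 80.9% of epitenon-like cells and in 5.81%, 3.40% and 3.68% of macrophage-like cells.

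*Ltbp2* (ENSMUSG00000002020), the binder that does not carry TGF-beta, was highest in epitenon-like cells, and its level differed between libraries. Epitenon-like cells held 337 CPM in WT, 460.5 in DTR and 178 in B6, and tenocyte-like cells 25.2, 81.2 and 28.7 CPM. The tenocyte-like level was uneven: clusters of mostly tenocyte-like cells ran from 2.97 to 86.2 CPM in WT, 21.1 to 206 in DTR and 1.23 to 106 in B6. Free RNA alone would give 4.35 CPM in tenocyte-like cells of WT. In every other class the median over the 3 libraries was at most 5.55 CPM, and the highest value was 27.0 CPM, in endothelial-like cells of DTR. Thinned shares of epitenon-like cells with an *Ltbp2* UMI were 27.1% (24.3 to 30.0), 36.0% (33.0 to 39.2) and 16.4% (14.8 to 18.0), compared with 1.36%, 1.07% and 0.866% of macrophage-like cells.

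The class sizes differed between libraries, and so did the cells that supplied a gene's UMIs. These shares combine class size with level. In tenocyte-like cells *Tgfbr3* was at 354 CPM in WT and 277 in B6, and *Tgfb1* at 81.7 and 49.8 CPM. Tenocyte-like cells held 80.4% of all *Tgfbr3* UMIs in kept WT cells, 68.3% in DTR and 25.2% in B6, and epitenon-like cells 8.60%, 15.9% and 52.8%. For *Tgfb1*, tenocyte-like cells held 49.4%, 32.3% and 8.65%, and macrophage-like cells 21.8%, 32.4% and 31.3%. *Ltbp4* summed over all kept cells was at 383 CPM in WT, 360.1 in DTR and 771 in B6, and 73.3% of its B6 UMIs came from epitenon-like cells. Within epitenon-like cells the B6 level of *Ltbp4* was 0.985 (0.968 to 1.003) times that of WT, a class value over clusters that differed between the libraries.

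**Figure D3:**
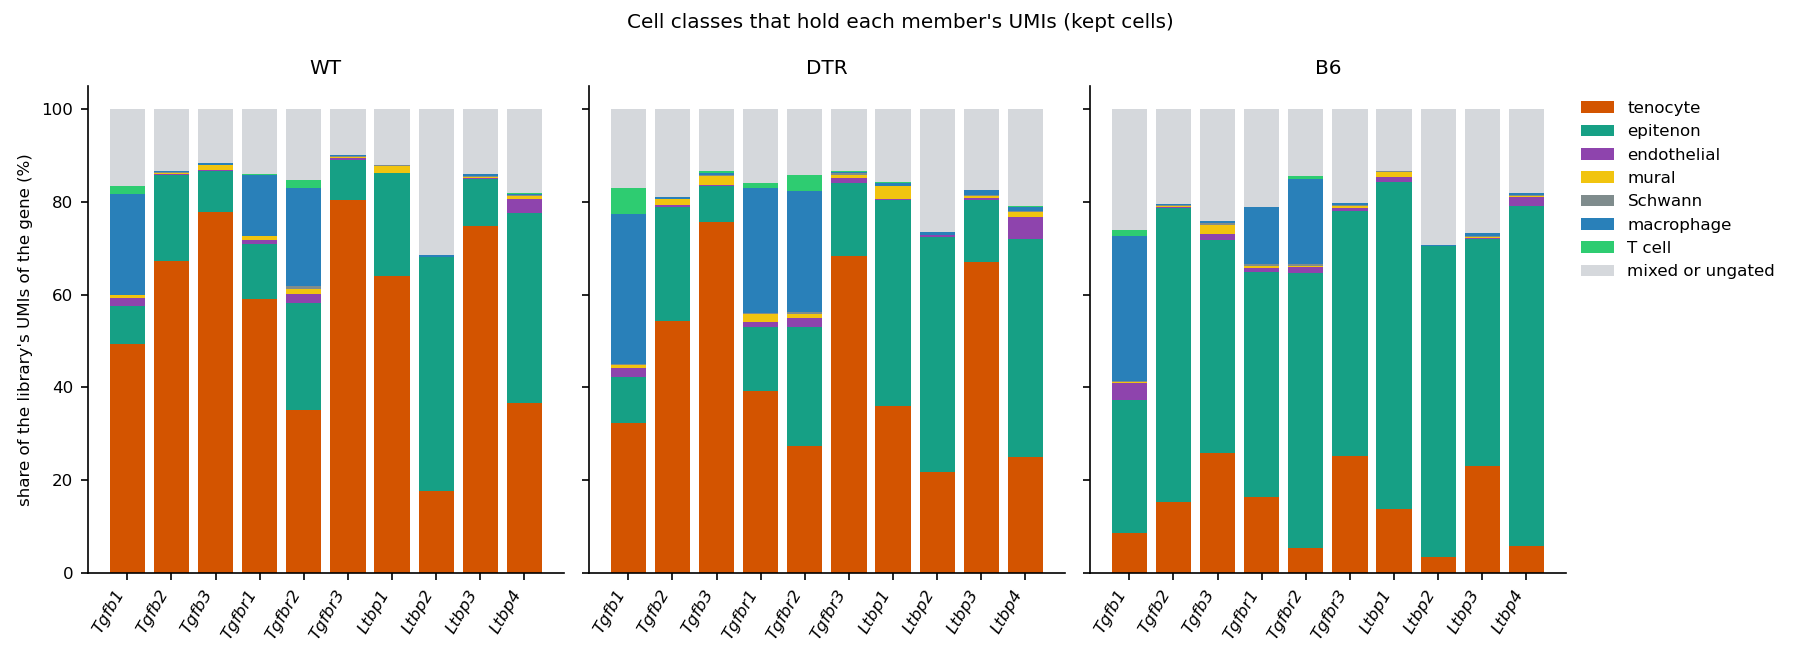
Share of each gene's UMIs (%) held by each cell class, in stacked bars for WT, DTR and B6. Tenocyte-like cells held most UMIs of *Tgfb3*, *Tgfbr3* and *Ltbp3* in WT and DTR, at least 67.0%, and epitenon-like cells were the largest class for all genes but *Tgfb1* in B6.

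The comparison of DTR with WT asks how the tenocytes that remain after loss of Scleraxis-lineage cells differ. In tenocyte-like cells, *Ltbp2*, *Tgfbr2* and *Tgfb3* were higher and *Ltbp1* was lower by over 1.5-fold, and the other 6 genes were within it. That is 4 of 10, where 12.5% of the 7605 genes with at least 10 CPM and 20 UMIs in either library passed the same fold. The median log2 ratio was 0.13 over the 10 genes and 0.03 over all genes tested. The transgene that encodes the DT receptor was not analysed here. *Scx*, whose promoter drives Cre, was at 90.6 CPM in tenocyte-like cells of WT and 114 CPM in DTR.

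*Ltbp2* was at 81.2 CPM in DTR from 2931 UMIs and at 25.2 CPM in WT from 1734 UMIs, a ratio of 3.22 (3.03 to 3.42). The thinned share of tenocyte-like cells with a UMI was 9.17% (8.11 to 10.3) in DTR and 2.88% (2.44 to 3.37) in WT. Because *Ltbp2* is a gene of epitenon-like cells, tenocyte-like cells were divided by how many of the 8 epitenon markers they carried. The markers were counted after thinning to 2000 UMIs, so a cell counted without one can still hold it among its other UMIs. Among the cells with none, 906 in DTR and 1417 in WT, the level was 85.3 and 25.3 CPM. With 1 marker it was 85.1 and 24.8 CPM, with 2 markers 74.2 and 21.1 CPM, and with 3 or more, 139 and 239 cells, 60.7 and 52.2 CPM. The summed epitenon markers of tenocyte-like cells were 1182 CPM in DTR and 1482 CPM in WT, with *Clec3b* alone at 546 and 870 CPM. In the bin without an epitenon marker the difference was about as large as in all tenocyte-like cells, and it was smaller in the few cells with at least 3. The part of epitenon-like transcripts in the difference was not tested.

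**Figure D4:**
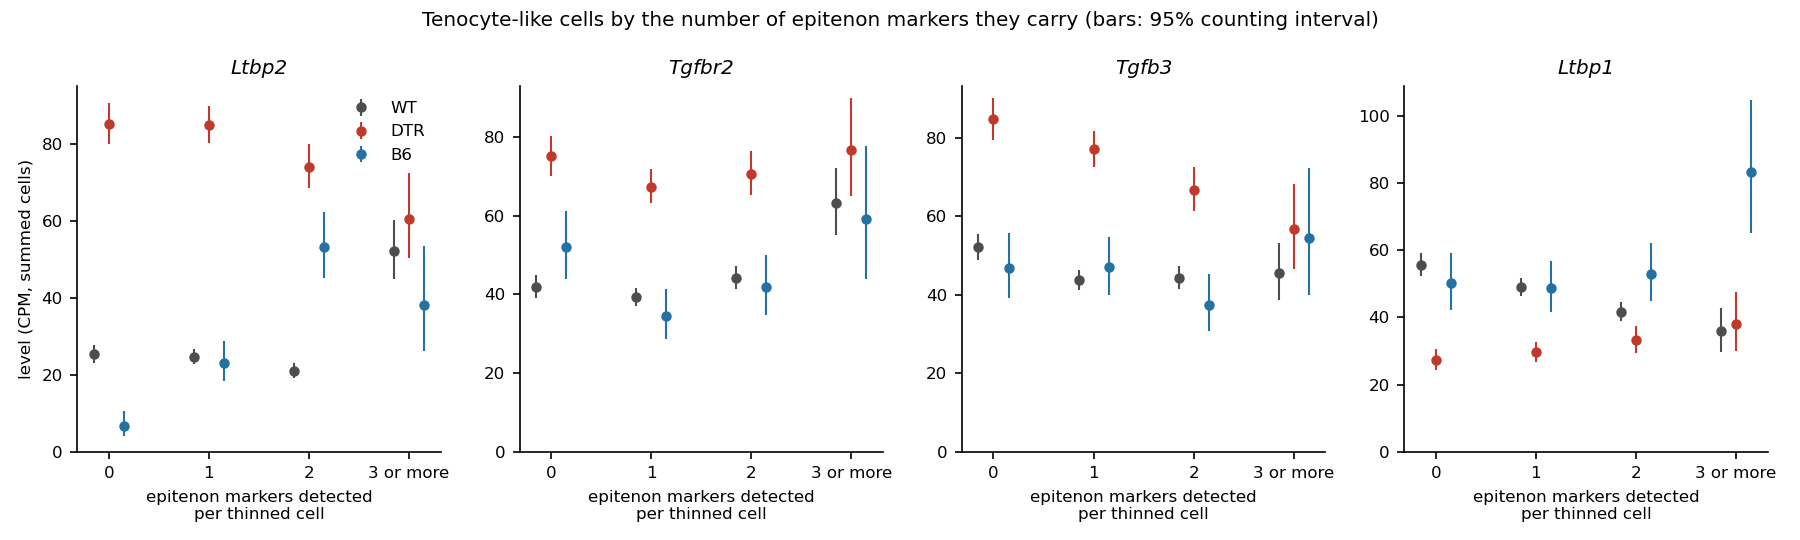
Levels (CPM, linear axis from 0) of *Ltbp2*, *Tgfbr2*, *Tgfb3* and *Ltbp1* in tenocyte-like cells of WT, DTR and B6, as points with 95% counting intervals. Bins are 0, 1, 2 or at least 3 epitenon markers, counted after thinning. *Ltbp2* in DTR lay between 60.7 and 85.3 CPM in every bin, and in B6 it was lowest, 6.80 CPM, in cells without an epitenon marker.

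*Tgfbr2* was at 71.1 CPM in DTR and 42.6 CPM in WT, a ratio of 1.67 (1.58 to 1.76), while *Tgfbr1* had a ratio of 0.997, with an upper bound of 1.05. *Tgfb3* was at 75.9 and 46.2 CPM, a ratio of 1.64 (1.56 to 1.73). The other ligands were close to WT, with ratios of 1.13 (1.08 to 1.18) for *Tgfb1* and 1.06 (1.03 to 1.09) for *Tgfb2*. *Ltbp1* was at 30.2 CPM in DTR and 47.9 CPM in WT, a ratio of 0.630 (0.588 to 0.675). In cells without an epitenon marker *Ltbp1* was at 27.3 CPM in DTR and 55.6 CPM in WT. With 1 marker it was at 29.6 and 49.1 CPM, and with 2 markers at 33.2 and 41.6 CPM. With 3 or more it was at 38.1 and 35.8 CPM, so the lower level in DTR was not seen in that bin. *Tgfbr3*, *Ltbp3* and *Ltbp4* had ratios of 0.932, 1.16 and 0.924.

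Female cells were 72.2% of the sexed tenocyte-like cells of WT and 40.9% of those of DTR, so the levels were also taken within each sex. *Ltbp2* was at 70.8 CPM in female cells of DTR and 25.1 CPM in those of WT, and at 92.6 and 28.6 CPM in male cells. *Tgfbr2* (67.5 and 41.4 CPM in female cells, 73.3 and 43.7 CPM in male cells) and *Tgfb3* (68.6 and 45.6, 81.6 and 45.9 CPM) were also higher in DTR in both sexes. *Ltbp1* was at 28.7 CPM in female cells of DTR and 51.7 CPM in those of WT, but at 31.0 and 39.3 CPM in male cells, a log2 difference of -0.34 that is within 1.5-fold. *Ltbp4* went in opposite directions, at 252 CPM in female cells of DTR and 219 CPM in those of WT, and at 188 and 254 CPM in male cells. Hemoglobin transcripts summed to 4003 CPM in tenocyte-like cells of DTR and 1036 CPM in those of WT; their part in the result was not tested.

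Fine clusters, computed without the 10 genes, showed how the tenocyte-like class was made up. The cluster led by *Adig*, *Ucma* and *Coch* held 1209 WT, 49 DTR and 28 B6 cells, and that led by *Ucma* and *Hp* 1041 WT, 49 DTR and 30 B6 cells. The cluster led by *Edil3* and *Fbln7* held 34 WT, 1164 DTR and 80 B6 cells, so much of the class came from different clusters in different libraries. In the 5 clusters of mostly tenocyte-like cells with at least 50 cells in both WT and DTR, *Ltbp2*, *Tgfbr2* and *Tgfb3* were higher in DTR in 5 of 5, and *Ltbp1* was lower in 4 of 5. The log2 differences ran from 0.74 to 2.80 for *Ltbp2* and from -1.35 to 0.20 for *Ltbp1*. They ran from 0.10 to 0.67 for *Tgfbr2* and 0.06 to 0.81 for *Tgfb3*, compared with 0.74 and 0.72 in the class. The lower ends for *Tgfbr2* and *Tgfb3* are within 1.5-fold. *Ltbp2* in the cluster led by *Npy* and *Slurp1* was at 206 CPM in DTR and 86.2 CPM in WT, and in that led by *Lcn2* and *Nos2* at 108 and 24.9 CPM. *Tgfb3* differed least in the cluster led by *Gbp6* and *Saa1*, at 34.4 and 33.1 CPM. *Ltbp1* was at 71.8 and 63.8 CPM in WT cells of the *Adig* and *Ucma* clusters, and at 10.6 CPM in WT and 12.2 CPM in DTR in the cluster led by *Npy*.

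The sequence before the transcription start is shown for the genes past 1.5-fold in DTR tenocyte-like cells that have an entry in the RefSeq promoter table used here, with every SMAD box (CAGAC on either strand), the short element bound by SMAD3 and SMAD4, in capitals. Each is the 250 bases upstream of the start on the strand of the gene, in build GRCm38.p6.
Ltbp2, chr12:84876492-84876741, minus strand: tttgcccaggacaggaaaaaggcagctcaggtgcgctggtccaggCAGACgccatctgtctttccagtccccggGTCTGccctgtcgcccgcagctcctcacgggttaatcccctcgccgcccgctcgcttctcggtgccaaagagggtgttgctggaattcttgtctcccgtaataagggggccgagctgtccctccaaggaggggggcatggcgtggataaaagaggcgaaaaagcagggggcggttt
Tgfbr2, chr9:116175364-116175613, minus strand: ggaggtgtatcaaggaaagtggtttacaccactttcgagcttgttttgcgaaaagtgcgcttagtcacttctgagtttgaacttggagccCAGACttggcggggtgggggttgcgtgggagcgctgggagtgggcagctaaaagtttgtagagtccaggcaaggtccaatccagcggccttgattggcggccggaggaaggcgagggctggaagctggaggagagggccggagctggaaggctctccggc
Ltbp1, the first of 2 starts, chr17:75005279-75005528, plus strand: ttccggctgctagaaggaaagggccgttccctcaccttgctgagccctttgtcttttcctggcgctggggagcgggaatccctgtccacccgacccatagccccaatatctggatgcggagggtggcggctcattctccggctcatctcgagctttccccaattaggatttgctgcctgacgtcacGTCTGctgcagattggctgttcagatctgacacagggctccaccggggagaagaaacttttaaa

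That table gave windows for 8 of the 10 genes, not for *Tgfb3* and *Tgfbr3*. *Ltbp2* held 2 SMAD boxes and 2 GC boxes (GGGCGG), *Tgfbr2* 1 SMAD box, and *Ltbp1* 1 SMAD box at the first start and 2 at the second. A SMAD box was present in 42.2% of all 32851 promoter windows of this length and a GC box in 32.7%, so these matches are common ones. No window of the 8 genes held an AP-1 element (TGANTCA, found in 6.75% of all windows). *Tgfb1* held 5 GC boxes and no SMAD box.

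In epitenon-like cells none of the 10 genes passed 1.5-fold between DTR and WT, where 5.3% of 7835 genes did, and the median log2 ratio was -0.01 over the 10 genes and 0.01 over all. *Ltbp2* came closest, at 460.5 CPM in DTR and 337 CPM in WT, a ratio of 1.37 (1.32 to 1.42). It was at 437 and 278 CPM in female cells and at 468 and 473 CPM in male cells, so the difference was seen in female cells only. *Tgfbr2* had a ratio of 1.24 (1.16 to 1.31), *Ltbp4* of 0.821 (0.803 to 0.839), and *Tgfb3* of 0.778 (0.664 to 0.910). *Ltbp1*, lower in tenocyte-like cells of DTR, was higher in epitenon-like cells with a ratio of 1.18 (1.09 to 1.28).

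**Figure D5:**
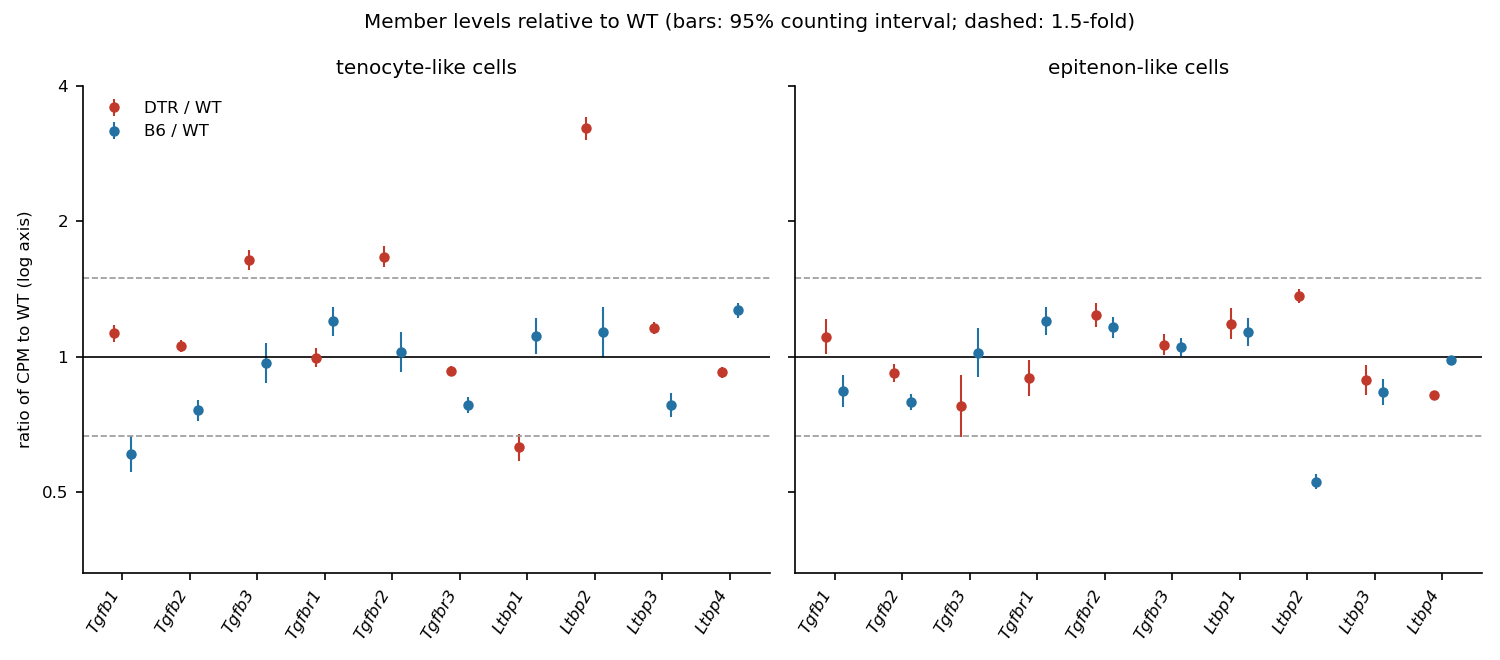
Ratio of each gene's CPM in DTR and B6 to that in WT (log axis) in tenocyte-like and epitenon-like cells, with 95% counting intervals; dashed lines mark 1.5-fold. *Ltbp2* in DTR tenocyte-like cells, at 3.22, was the largest ratio and *Ltbp2* in B6 epitenon-like cells, at 0.528, the smallest.

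In macrophage-like cells the 4 genes above the low-count limit, *Tgfb1*, *Tgfbr1*, *Tgfbr2* and *Ltbp4*, were all within 1.5-fold in DTR, where 5.66% of 7379 genes passed it. *Tgfb1* had a ratio of 0.814 (0.773 to 0.858) and *Tgfbr2* of 0.836 (0.786 to 0.889). The clusters with most macrophage markers differed in size between these libraries: that led by *Fxyd2* and *Lyz1* held 129 WT and 1088 DTR cells, and that led by *Vsig4* and *Lyve1* 432 WT and 8 DTR cells. Over all cells of the *Fxyd2* cluster both genes were higher in DTR, unlike in the class. *Tgfbr2* was at 165 CPM in DTR and 123 CPM in WT, and *Tgfb1* at 232 and 208 CPM. Of the cells in that cluster, 91.8% in DTR and 62.8% in WT were macrophage-like. In endothelial-like cells 3 of 8 genes passed 1.5-fold, against 15.4% of 6809 genes. Of these, *Tgfb2* and *Ltbp2* reached the limit of 20 UMIs only in DTR, where they were higher. Their calls therefore partly follow from that limit. *Tgfb2* had 42 UMIs in DTR and 14 in WT, a ratio of 2.86 (1.53 to 5.67). *Ltbp2* had 36 and 7 UMIs, a ratio of 4.90 (2.15 to 13.1), and *Tgfbr3* 170 and 104 UMIs, a ratio of 1.56 (1.21 to 2.01). Shares of endothelial-like cells with a *Tgfb2* UMI were 2.96% in DTR and 2.94% in WT after thinning, and 13.3% and 7.35% before it. The sexes went in opposite directions. *Tgfb2* was at 10.1 CPM in female cells of DTR and 13.2 CPM in those of WT, from 4 and 9 UMIs. In male cells it was at 39.8 and 5.33 CPM, from 29 and 2 UMIs. *Ltbp2* UMIs were in 5.93% of these DTR cells, and the cells with a called sex held 2 and 3 of them in DTR (female and male) and 4 and 1 in WT, so a few cells without a called sex carried the ratio. Hemoglobin transcripts in the endothelial-like cells summed to 3157 and 47.3 CPM, and their part in the result was not tested. In mural-like cells 1 of 9 genes passed 1.5-fold, where 15.3% of 7633 genes were higher and 9.66% lower by that fold. This was *Tgfb2*, at 111 CPM in DTR and 54.8 CPM in WT, with thinned shares of 20.2% (14.7 to 26.8) and 11.3% (6.63 to 17.8). Hemoglobin transcripts in the mural-like cells summed to 5469 CPM in DTR and 56.3 CPM in WT, and their part was not tested.

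The comparison of B6 with WT asks how cells of aged tendon differ. In B6 most genes had lower CPM values: taken over every gene tested, the log2 ratio had a median of -0.27 in tenocyte-like and also in epitenon-like cells. Calls among the 10 genes in these classes are therefore also given relative to that median. In tenocyte-like cells 1 of 10 genes passed 1.5-fold, where 21.9% of 7397 genes did, 6.22% higher and 15.7% lower, and the median of the 10 genes was -0.0040. Relative to the median of all genes that split was 11.0% higher and 4.33% lower. The gene was *Tgfb1*, at 49.8 CPM in B6 and 81.7 CPM in WT, a ratio of 0.610 (0.555 to 0.668) and a log2 difference of -0.71, or -0.44 relative to the median. Relative to the median it was *Ltbp4* instead that passed the fold, at a log2 difference of 0.62 compared with 0.34 before. Neither call is therefore independent of the scaling. The cluster led by *Angptl4* and *Mt1* held 566 B6, 2 DTR and 0 WT cells, 95.8% of the B6 cells being tenocyte-like. In the 2 clusters of mostly tenocyte-like cells with at least 50 cells in both libraries, the log2 difference of *Tgfb1* was -0.30 and 0.04.

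The other 9 genes in B6 tenocyte-like cells were within 1.5-fold of WT. *Tgfb3*, *Tgfbr2* and *Ltbp1*, past that fold in DTR, had ratios of 0.970 (0.877 to 1.07), 1.02 (0.925 to 1.13) and 1.11 (1.01 to 1.22). *Ltbp2* had a ratio of 1.14 (0.999 to 1.29), but the difference changed with the number of epitenon markers. The level of *Ltbp2* was 6.80 CPM in B6 and 25.3 CPM in WT in tenocyte-like cells without such a marker. It was 23.2 and 24.8 CPM in cells with 1 marker, 53.3 and 21.1 CPM with 2, and 38.2 and 52.2 CPM with 3 or more. Its log2 difference was -1.90 in cells without an epitenon marker and 0.18 in all. *Tgfbr1* had a ratio of 1.20 (1.11 to 1.29), *Tgfb2* of 0.761 (0.721 to 0.803) and *Tgfbr3* of 0.783 (0.752 to 0.814).

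In epitenon-like cells of B6, *Ltbp2* was the gene past 1.5-fold, where 14.5% of 7740 genes passed it, 4.47% higher and 10.0% lower; relative to the median of all genes these shares were 8.13% and 2.38%. The median log2 ratio of the 10 genes was 0.0042. It was at 178 CPM in B6 and 337 CPM in WT, a ratio of 0.528 (0.508 to 0.549), and the log2 difference was -0.92, or -0.66 relative to the median. It was lower in both sexes, at 167 and 278 CPM in female cells and 198 and 473 CPM in male cells. The cluster led by *Uchl1* and *Ltbp2* itself, in which most cells were epitenon-like, held 1083 CPM in WT and 897 CPM in B6 over 281 and 310 cells. The cluster led by *Ccl8* and *Ccl11* held 559 B6 cells, at 14.6 CPM, and 24 WT cells. The cluster led by *Ptx3* and *Tnfaip6* held 689 B6 cells, at 8.22 CPM, of which 71.8% were epitenon-like. Its WT cells numbered 317, at 10.9 CPM, and 39.4% of them were without a class. That led by *Sfrp4* held 587 WT and 5 B6 cells, so the class mixed different clusters in the 2 libraries. *Ltbp4*, *Tgfbr3* and *Tgfb3* had class ratios of 0.985, 1.05 and 1.02. Over all cells of the 2 clusters of mostly epitenon-like B6 cells that had at least 50 cells in both libraries, *Ltbp4* was higher in B6 in both, by 0.35 and 1.26 on the log2 scale. *Ltbp1* was higher by 0.86 and 1.88 in them, compared with 0.18 in the class. The log2 difference of *Ltbp2* in these clusters was -0.27 and -0.47, both within 1.5-fold, compared with -0.92 in the class. In the one led by *Krtdap* and *Dmkn*, 32.6% of WT and 90.1% of B6 cells were epitenon-like.

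Macrophage-like cells of B6 had 1 of 4 genes past 1.5-fold, where 17.8% of 7454 genes passed it. This was *Ltbp4*, at 30.6 CPM in B6 and 18.3 CPM in WT; free RNA alone would give 19.0 and 7.84 CPM. *Tgfbr1* had a ratio of 0.771 (0.698 to 0.850), *Tgfb1* of 0.942 (0.886 to 1.001) and *Tgfbr2* of 1.09 (1.02 to 1.17).

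Endothelial-like cells of B6 had 7 of 9 genes past 1.5-fold, where 32.6% of 6990 genes passed it, 10.3% higher and 22.3% lower. The median log2 ratio over these genes was -0.20, and relative to it the split was 14.9% and 12.5%. Relative to that median *Ltbp4*, at -0.40, and *Tgfbr3*, at -0.57, were within the fold. *Ltbp4* was at 691 CPM in B6 and 1048 CPM in WT, a ratio of 0.659 (0.607 to 0.716), *Tgfbr2* at 74.9 and 135 CPM, a ratio of 0.556 (0.433 to 0.711), and *Tgfbr3* at 48.1 and 82.0 CPM, a ratio of 0.587 (0.427 to 0.803). *Ltbp3* rested on 18 and 35 UMIs. Those higher were *Ltbp1*, from 36 UMIs in B6 and 2 in WT, a ratio of 15.7 (4.04 to 135), *Tgfb3*, from 21 and 8 UMIs, and *Tgfb2*, from 26 and 14 UMIs. The intervals of *Tgfb3*, 0.974 to 5.98, and of *Tgfb2*, 0.815 to 3.36, included no difference. The low-count limit asks for 20 UMIs in only 1 of the libraries. *Ltbp1*, *Tgfb3* and *Tgfb2* met it only in B6, where they were higher, and *Ltbp3* only in WT. Their calls therefore partly follow from the limit, and the count of 7 is a description only. Mural markers in the endothelial-like cells summed to 3732 CPM in B6 and 816 CPM in WT, led by *Rgs5*; *Ltbp1* and *Tgfb3* were at 96.0 and 72.0 CPM in mural-like cells of B6. Hemoglobin transcripts in the endothelial-like cells summed to 3678 CPM in B6 and 47.3 CPM in WT. The part of either in the endothelial differences was not tested.

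Around the 10 genes, the TGF-beta pathway was read from 36 genes in 5 lists, of which 28 in DTR and 27 in B6 were above the low-count limit in tenocyte-like cells. In DTR 5 were higher and 2 lower by over 1.5-fold, with a median log2 ratio of 0.30, where 12.5% of all genes passed the fold, 6.63% higher and 5.83% lower. Of the activators of latent TGF-beta 3 of 8 were higher, and none lower. The pathway ratios are class values over clusters that differed in size between the libraries. Their values within clusters, sexes or marker bins are not reported here. *Mmp2*, a gelatinase that can release TGF-beta, was at 670 CPM in DTR and 97.9 CPM in WT, a ratio of 6.85 (6.66 to 7.04). It was among the leading genes of the cluster led by *Mstn* and *Edil3*, which held 187 WT and 614 DTR cells. *Mmp14*, the membrane-bound activator of the *Mmp2* protein, was at 61.6 and 28.3 CPM in DTR and WT, a ratio of 2.17 (2.05 to 2.31). *Thbs1*, thrombospondin, was at 905 and 431 CPM, with an interval of 2.07 to 2.13 for the ratio. The integrin genes *Itgav* and *Itgb8*, whose proteins bind and activate the latent complex, had ratios of 1.35 (1.27 to 1.43) and 1.03 (0.945 to 1.13).

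Among the target genes *Ccn2*, connective tissue growth factor, was at 1784 CPM in DTR and 831 CPM in WT, a ratio of 2.15 (2.12 to 2.17). *Tgfbi* and *Scx* were within 1.5-fold, with ratios of 0.697 (0.681 to 0.713) and 1.26 (1.21 to 1.31). The feedback inhibitor *Smad7* was at 115 and 80.6 CPM, a ratio of 1.42 (1.37 to 1.48). The genes lower were *Tgif1*, a SMAD corepressor, at 167 and 265 CPM, and *Emilin1*, which holds back TGF-beta processing, at 29.7 and 45.4 CPM. The anchors *Lrrc32* and *Nrros*, which hold latent TGF-beta on regulatory T cells and macrophages, were at 4.88 and 0.499 CPM in DTR and under the limit, as in WT at 2.94 and 0.509 CPM. *Nrros* was at 34.6 CPM in macrophage-like cells of WT.

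In B6 tenocyte-like cells 3 of 27 pathway genes were higher and 4 lower, where 21.9% of all genes passed the fold. *Mmp2* was at 312 CPM, a ratio of 3.19 (3.05 to 3.33) to WT, *Thbs1* at 806 CPM, a ratio of 1.87 (1.82 to 1.92), and *Bambi*, a decoy receptor, at 50.5 and 32.8 CPM, a ratio of 1.54 (1.40 to 1.70). Lower were *Fn1*, fibronectin, at 943 and 2647 CPM, a ratio of 0.356 (0.349 to 0.364), *Emilin1*, with a ratio of 0.374 (0.319 to 0.437), *Cd109*, a coreceptor that promotes receptor breakdown, with 0.585 (0.545 to 0.628), and *Itgb8*, with 0.652 (0.540 to 0.782). *Smad7* and *Itgav* were within 1.5-fold, with ratios of 1.27 (1.19 to 1.36) and 0.967 (0.862 to 1.08). Relative to the median log2 ratio of all genes, -0.27, *Smad7* was past the fold, and *Cd109* and *Itgb8* were within it. Calls of pathway genes in B6 therefore depend on the scaling. Other pathway genes are not reported relative to that median. *Lrrc32* was at 6.39 CPM and *Nrros* at 0.0999 CPM.

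In epitenon-like cells 2 of 31 pathway genes were higher and 3 lower in DTR, and 3 higher and 3 lower in B6, where 5.3% and 14.5% of all genes passed the fold. The genes higher in DTR were *Fn1* and *Lrrc32*. *Thbs1*, higher in tenocyte-like cells, was at 112 CPM in epitenon-like cells of DTR and 377 CPM in those of WT, a ratio of 0.297 (0.281 to 0.314). *Lrrc32* was at 10.4 CPM in WT, 15.7 in DTR and 29.2 in B6.

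The genes most like each member over 21 sums, 7 classes in each of 3 libraries, were found among 6548 genes by Pearson's r of log2(CPM + 1). These points share libraries and cell classes, so r is a description of the class pattern. *Tgfb1* was closest to *Gmfg* (r = 0.943), *Cysltr1* and *Sh3bgrl3*, *Tgfb2* to *Bicc1* (r = 0.969), *Fam114a1* and *Sspn*, and *Tgfb3* to *Serpine2* (r = 0.921), *Snhg18* and *Cys1*. *Tgfbr1* was close to *Tgfbi* (r = 0.875) and *Ctsb*, *Tgfbr2* to *Capn2* (r = 0.870), *Arhgdia* and *Usf2*, and *Tgfbr3* to *Fkbp10* (r = 0.962), *Sulf1* and *P3h4*. *Ltbp1* was closest to *Slit3* (r = 0.940), *Nnmt* and *Ddr2*, and *Ltbp2* to *Adgrg2* (r = 0.945), *Sbsn* and *Cdo1*. *Ltbp3* was closest to *Ikbip* (r = 0.949), *Fkbp7* and *Pam*, and *Ltbp4* to *Slco2a1* (r = 0.947), *Ptprg* and *Sned1*. None of these was itself a member.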

How the data were processed

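The 3 libraries were made with 10x Genomics Chromium 3′ chemistry, and the counts the authors deposited are raw UMI counts, with no normalization, for each gene in each barcode. The file headers name Cell Ranger 6.0.1 and the submitters' processing notes 2.1.1; the genome build is not given in the sources used here. Totals were 148149903, 123918145 and 92707026 UMIs for WT, DTR and B6. The genes, lists, markers and comparisons were chosen with earlier results of these data known, and the cut-offs of the marker rule were set after the counts were seen.

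From these counts, cells were filtered, thinned to 2000 UMIs and gated as described, and 9 WT, 5 DTR and 1 B6 cells with fewer UMIs were left out of thinned shares. UMIs were summed per class and library. Ratios have exact conditional 95% intervals from both counts, levels exact Poisson and shares exact binomial (Clopper-Pearson) intervals. No p-value was computed. The background counts genes with at least 10 CPM and 20 UMIs in either library. Free RNA was estimated per class from tenocyte markers (macrophage markers for tenocyte-like cells) against the whole-library profile. It was 14.6% to 29.6% in epitenon-like cells, an upper limit where these cells make such transcripts themselves, and at most 4.04% in the other classes. Doublets were kept in the values as reported: Scrublet called 2, 7 and 1 cells, too few to have worked, so an alternative left out the 5% of cells with the highest score. Pathway genes are given with values where past 1.5-fold in tenocyte-like cells, plus *Itgav*, *Itgb8*, *Lrrc32*, *Nrros* and *Smad7*; values of some genes under this rule are not reported here. *Tgfbi* and the sex, marker-bin and cluster values were chosen after the values were seen. Leiden clusters used 2000 variable features without the 10 genes, pathway genes and sex-linked genes. Sex was called per cell from *Xist* and Y-linked transcripts. Python 3.11.15, numpy 2.4.6, scipy 1.17.1, scanpy 1.11.5, leidenalg 0.10.2 and edgeR 4.0.16 (TMM factors, an alternative scaling) were used. The calculation was tested on simulated counts. Promoter sequences are from RefSeq.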

Additional observations from a re-analysis of the deposited data

Results flagged for a closer look

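Listed here are genes with opposite directions in 2 cell classes within a comparison. Both counting intervals had to be clear of no difference and at least 1 class past 1.5-fold. The share of all genes that meet this rule was not computed, and the differences between classes were not tested. In DTR against WT, the log2 ratio of *Ltbp1* was -0.67 in tenocyte-like and 0.24 in epitenon-like cells. That of *Tgfb3* was 0.72 in tenocyte-like and -0.36 in epitenon-like cells. The epitenon-like value ran from -0.60 to 0.06 over the alternatives described below, and *Tgfb3* was lower in 2 of 3 shared clusters. *Tgfbr2* was at 0.74 in tenocyte-like and -0.26 in macrophage-like cells, whose clusters differed in size between WT and DTR. Over all cells of the cluster led by *Fxyd2* and *Lyz1*, *Tgfbr2* was higher in DTR, at 165 CPM and 123 CPM in WT. Of these cells 91.8% in DTR and 62.8% in WT were macrophage-like. *Tgfb2* was at 1.52 in endothelial-like cells, from 42 and 14 UMIs, and -0.12 in epitenon-like cells, where it was 0.09 in male cells and higher in 2 of 3 shared clusters. Among endothelial-like cells *Tgfb2* was lower in DTR in female cells, from 4 and 9 UMIs, and higher in male cells, from 29 and 2 UMIs. *Tgfbr3* was at 0.64 in endothelial-like and -0.10 in tenocyte-like cells.

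In B6 against WT, *Tgfbr2* was at -0.85 and *Tgfbr3* at -0.77 in endothelial-like cells, compared with 0.22 and 0.07 in epitenon-like cells. Relative to the median of all genes the endothelial values were -0.65 and -0.57, and that of *Tgfbr3* was then within 1.5-fold. *Ltbp4* was at 0.74 in macrophage-like cells, near the level of free RNA, and at -0.60 in endothelial-like cells.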

How the results depend on the processing

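All 6 member ratios past 1.5-fold in stromal classes kept their direction under each of 15 alternatives (filters, gates, clusters, doublets, free RNA, scaling, sex, thinning and weighting of cells). Of the other 34, 16 changed direction at least once. The 6 ratios were chosen for their size and most alternatives reuse largely the same cells, so a change of direction was unlikely for them. The count of 4 in tenocyte-like cells of DTR was 3 in male cells and 1 with a 2-fold threshold. The count of 1 in tenocyte-like cells of B6 was 0 without an upper limit on genes, with classes from clusters, with TMM scaling and with a 2-fold threshold. It was 2 in male cells, in cells thinned to 2000 UMIs and in cells without a marker of the other stromal class, an alternative chosen after seeing the data. The count of 0 in epitenon-like cells of DTR was 1 in female cells and 1 in male cells. The count of 1 in epitenon-like cells of B6 was 2 with free RNA subtracted and 0 with a 2-fold threshold. The cause was not tested. Genes with the same leading class in all 3 libraries, 9 as reported, numbered 8 to 10, with no share over all genes computed beside them. The log2 ratio of *Ltbp2* in tenocyte-like cells of DTR ran from 1.42 to 1.93 and that of *Ltbp1* from -1.03 to -0.34. No paired analysis was possible because each group is 1 library. Endothelial-like, mural-like and Schwann-like classes held under 200 cells, so their values rest on few UMIs.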
